A study of Saccharomyces cerevisiae with 4 samples.

Results

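Transcripts of 35 nuclear genes of the respiratory chain, the ATP synthase and the late steps of the tricarboxylic acid (TCA) cycle were followed in Saccharomyces cerevisiae when nitrogen became scarce. The genes were picked by systematic name out of the 6301 open reading frames (ORFs) of the array table for their known function, and no gene was taken from the rows of the table where the replicates disagree (described below). Values thus had a part in the choice, and subunits such as COX12, SDH1 and SDH2 are not among the 35. They are 8 genes of complex III, 7 of complex IV, 2 of cytochrome c, 12 of complex V and 6 of dehydrogenases and late TCA steps. Strain S288c was grown at 30°C and 160 rpm in synthetic complete medium (SC, nitrogen-rich) to an OD600 of 0.4. For the nitrogen-poor condition, cells from such cultures spent 12 h in minimal medium (MM) that held 0.025% ammonium sulfate and no adenine or amino acids. Nitrogen, amino acids, adenine and the 12 h after mid log phase therefore differ together between the media and cannot be told apart. In S288c the gene of Hap1, a heme-dependent activator of cytochrome genes, carries a Ty element insertion, and both media share that background.

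Each of the 4 spotted ORF arrays compared MM with SC directly, from cDNA primed with oligo-dT and labelled with Cy5 and Cy3. By the titles, Cy5 marked MM on 2 arrays, called forward here, and SC on the other 2, called reverse. Each orientation has replicates 1 and 2, given in this order below. All values below are log2 ratios of MM over SC, so a value of 1 is 2-fold more transcript in MM relative to the average spot of the array. A general change in mRNA per cell is removed by that scaling, and in a bulk culture fewer cells that express a gene and less RNA per cell cannot be told apart. The direction rests on the sign given in the text of the study for 5 genes, which the mean of the arrays matched in 5 of 5. Those signs are the study's own oligo-dT array ratios, so the match shows its sign convention and is no independent check. Of these genes, 4 lie in the discordant rows described below. For the same genes the mean matched the stated sign of RT-PCR in 4 of 5 and that of tag sequencing in 4 of 5. The mismatch with RT-PCR was YFR034C, the gene outside the discordant rows, so every match with RT-PCR lies inside them. The mismatch with tag sequencing was YKR053C, which lies inside them. The titles and the channel annotations of the arrays name opposite dyes for the media, and in the opposite direction every sign below would turn.

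Yeast has no proton-pumping complex I. Electrons reach ubiquinone from NADH dehydrogenases that do not pump protons and from succinate dehydrogenase, pass through the cytochrome bc1 complex (complex III) and cytochrome c, and are given to oxygen by cytochrome c oxidase (complex IV), while the ATP synthase (complex V) uses the proton gradient. Most of these genes are repressed by glucose and are known targets of the Hap2/3/4/5 complex, an activator whose limiting subunit is Hap4. Some subunits have a second gene that is expressed when oxygen is low.

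Most of the respiratory genes had higher relative transcript in MM than in SC. Of the 35 genes, 30 had a value on all 4 arrays and entered the test. A gene was called where the limma adjusted p did not exceed 0.05 (n = 2 replicates). By this rule 24 rose, 1 fell and 5 were not called. Over all 3765 genes tested, 33.5% were called, 16.5% higher and 17% lower. The median log2 ratio of the 30 genes was 1.02, a fold change of 2.03, against -0.019 over all genes tested. It was 0.95 in replicate 1 and 1.03 in replicate 2. A mean ratio of at least 2-fold in favour of MM was seen in 15 of the 30 genes, against 7.12% of all genes tested and 7.72% of those outside the discordant rows described next. At least 2-fold in favour of SC was 1 of the 30, against 6.96% and 7.55%, and these shares would change places in the opposite direction. Of the 30 genes, 27 were above 0 on each of the 4 arrays. The same sign, of either direction, on all 4 arrays was seen in 28 of the 30 and in 2246 of the 3765 genes tested. Outside the discordant rows it was seen in 2012 of 2994.

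The table holds rows, from YKL054C to YMR185W and from YOR046C to YPL023C, where replicates 1 and 2 disagree gene by gene, and none of the 35 genes lies there. Over tested genes outside these discordant rows, 40.4% were called, 19.9% higher and 20.4% lower. The median on single arrays of the 30 genes was 1.12 and 1.07 on forward and 0.85 and 1.05 on reverse arrays (replicates 1 and 2). The median SD between replicates was 0.067 in the 30 genes. Since rows with disagreeing replicates were left out in choosing the genes, this closeness was in part fixed by the choice and says nothing particular of respiratory genes.

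**Figure D1:**
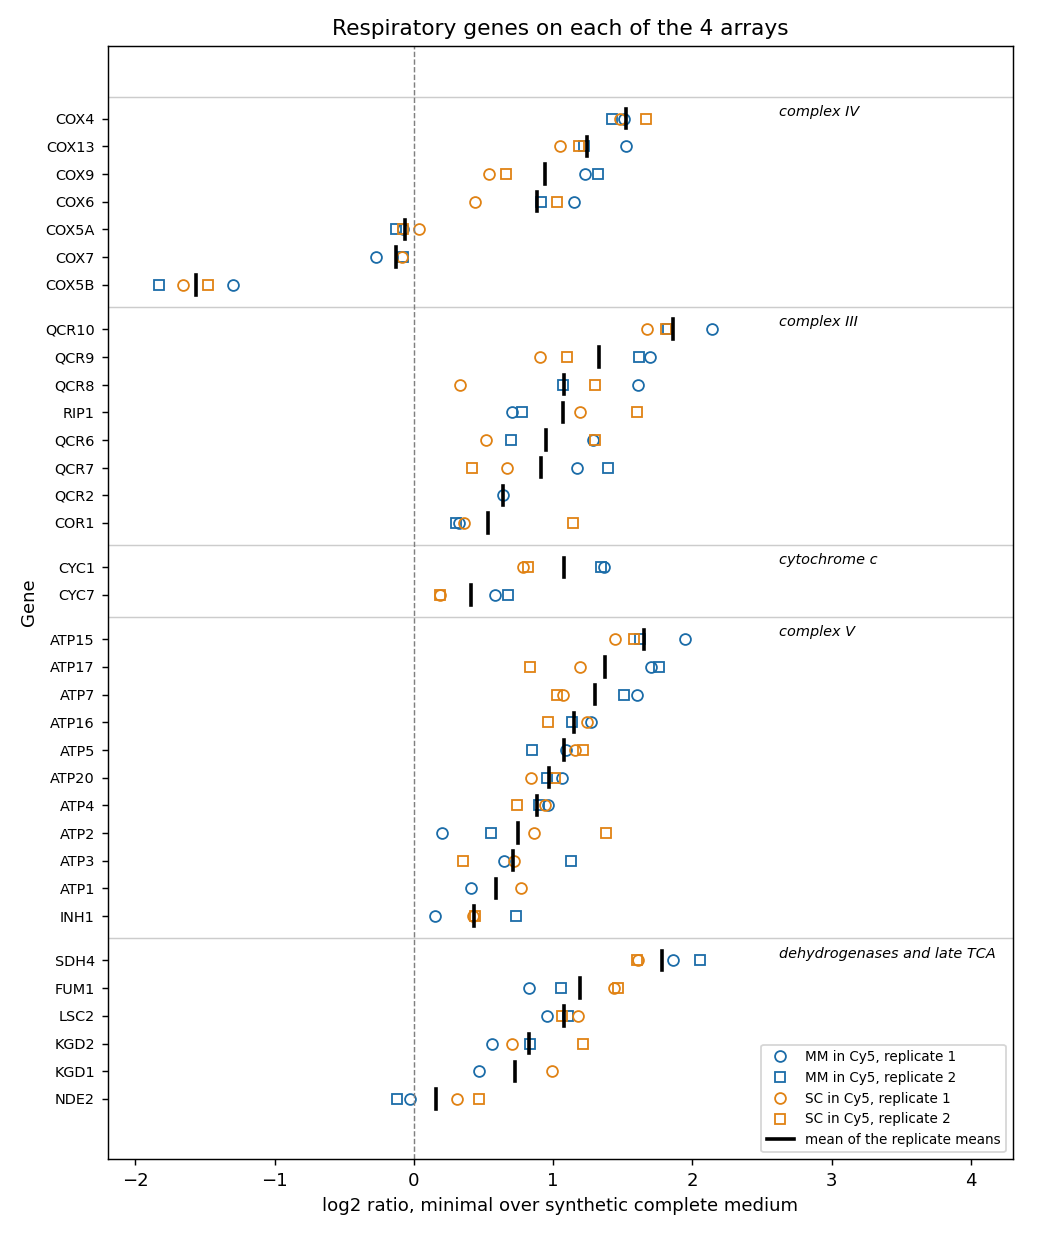
Log2 ratio of MM over SC (x axis) for the 34 respiratory genes with any value (y axis), by array: colour gives the dye orientation, circles and squares give replicates 1 and 2, and the black bar is the mean of the replicate means. Most genes lie between 0 and 2 on every array, COX5B lies below -1 on every array, and COX5A, COX7 and NDE2 lie close to 0.

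Electrons enter the chain through dehydrogenases, and of these SDH4 rose strongly while NDE2 stayed near 0. SDH4 (YDR178W), a membrane anchor of succinate dehydrogenase, had log2 ratios of 1.86 and 2.06 on the forward and of 1.61 and 1.60 on the reverse arrays. All 4 arrays were high, with a mean of 1.78 ± 0.065 (SD, n = 2), a 3.44-fold increase (limma adjusted p 0.00864), above 97.8% of the genes tested. NDE2 (YDL085W), which oxidizes cytosolic NADH at the outer face of the inner membrane, was at -0.026 and -0.12 on forward and at 0.31 and 0.47 on reverse arrays. Its arrays fell on both sides of 0 by dye orientation, and its mean of 0.16 ± 0.023 (SD, n = 2) was not called (limma adjusted p 0.262).

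The late TCA enzymes lay in between. FUM1 (YPL262W), which encodes fumarase, was at 0.82 and 1.06 on forward and at 1.44 and 1.46 on reverse arrays, with a mean of 1.20 ± 0.093 (SD, n = 2, limma adjusted p 0.0131). LSC2 (YGR244C), the beta subunit of succinyl-CoA ligase, was the most even of them, between 0.96 and 1.18 on the 4 arrays, with a mean of 1.08 ± 0.011 (SD, n = 2, limma adjusted p 0.0134). Both genes were thus above 2-fold in MM. KGD1 (YIL125W) and KGD2 (YDR148C) encode the dehydrogenase and the succinyltransferase components of the 2-oxoglutarate dehydrogenase complex. KGD1 was measured in replicate 1 only, at 0.46 on forward and 0.99 on reverse arrays, and was not tested. KGD2 was at 0.63 in replicate 1 and 1.03 in replicate 2 and rose by 0.83 ± 0.28 (SD, n = 2, limma adjusted p 0.0350). It was no longer called without the forward array of replicate 2 (0.93, limma adjusted p 0.0652).

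All genes of complex III were above 0 on every array that measured them, and 6 of 7 tested rose. The median of the 7 was 1.07. QCR10 (YHR001W-A), a small supernumerary subunit, was at 2.14 and 1.82 on forward and at 1.67 and 1.81 on reverse arrays. It had the highest mean of the 30 respiratory genes, 1.86 ± 0.065 (SD, n = 2), a 3.63-fold increase (limma adjusted p 0.00864), above 98.1% of the genes tested. The other small subunits followed it, all of them called. QCR9 (YGR183C) had a mean of 1.33, QCR8 (YJL166W) of 1.08, QCR6 (YFR033C), the acidic subunit next to cytochrome c1, of 0.95 and QCR7 (YDR529C) of 0.91.

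The Rieske iron-sulfur protein RIP1 (YEL024W), a catalytic subunit, rose by 1.07 ± 0.17 (SD, n = 2, limma adjusted p 0.0174). It was at 0.71 and 0.78 on forward and at 1.19 and 1.60 on reverse arrays, so its lower values were those on the forward arrays. QCR9 went the other way, at 1.69 and 1.62 on forward and at 0.91 and 1.10 on reverse arrays. The large core proteins of the complex had the lowest ratios. COR1 (YBL045C) was at 0.32 and 0.30 on forward and at 0.36 and 1.15 on reverse arrays. Its reverse array of replicate 2 stood above the other 3, and its mean of 0.53 ± 0.27 (SD, n = 2) was not called (limma adjusted p 0.0746). QCR2 (YPR191W), the other core protein, had a value on 1 array only, 0.64 on the forward array of replicate 1. Among the small subunits, QCR6 (0.76, limma adjusted p 0.0627) and QCR8 (0.76, limma adjusted p 0.128) were not called without the forward array of replicate 1, and QCR7 (0.67, limma adjusted p 0.105) was not without that of replicate 2.

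Cytochrome c carries electrons from complex III to complex IV and has a main gene, CYC1 (YJR048W), and a second gene, CYC7 (YEL039C), known for expression at low oxygen and under stress. CYC1 was at 1.36 and 1.34 on forward and at 0.79 and 0.82 on reverse arrays, and rose by 1.08 ± 0.0052 (SD, n = 2), 2.11-fold (limma adjusted p 0.0133). CYC7 was at 0.58 and 0.68 on forward and at 0.19 and 0.19 on reverse arrays. It was above 0 on all 4 arrays but at 0.41 ± 0.032 (SD, n = 2) was just short of the threshold (limma adjusted p 0.0536). The log2 ratio of CYC1 exceeded that of CYC7 on every array, by 0.60 to 0.78, with a mean difference of 0.67 ± 0.026 (SD, n = 2). No test was made of this difference, and cross-hybridization between paralogs on ORF spots was not tested.

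Complex IV held both directions. Of its 6 tested genes, 4 rose and 1 fell. COX4 (YGL187C), a zinc-binding subunit, was at 1.51 and 1.42 on forward and at 1.48 and 1.67 on reverse arrays, and had the largest increase of the complex at 1.52 ± 0.034 (SD, n = 2, limma adjusted p 0.00977), 2.87-fold. COX13 (YGL191W), a small subunit, rose by 1.25 ± 0.057 (SD, n = 2, limma adjusted p 0.0117). COX9 (YDL067C), another small subunit, was at 1.23 and 1.33 on forward but at 0.54 and 0.66 on reverse arrays and rose by 0.94 ± 0.077 (SD, n = 2, limma adjusted p 0.0166). COX6 (YHR051W), a subunit known to be induced by heme and repressed by glucose, had replicate means of 0.79 and 0.97 and rose by 0.88 ± 0.13 (SD, n = 2, limma adjusted p 0.0197). Without the forward array of replicate 1, neither COX6 (0.71, limma adjusted p 0.0793) nor COX9 (0.77, limma adjusted p 0.0581) was called, and COX9 was not called without that of replicate 2 either (0.77, limma adjusted p 0.0574).

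Subunit V of cytochrome c oxidase comes from COX5A (YNL052W), the isoform used in air, or from COX5B (YIL111W), the isoform known to be expressed at low oxygen. COX5B was the one respiratory gene called lower in MM. It was at -1.30 and -1.83 on forward and at -1.66 and -1.48 on reverse arrays. It was below -1 on all 4 arrays, with a mean of -1.57 ± 0.12 (SD, n = 2, limma adjusted p 0.0101), 2.97-fold less in MM, and only 3.05% of the genes tested had a lower mean. COX5A stayed near 0, at -0.075 and -0.13 on forward and at 0.036 and -0.080 on reverse arrays, with a mean of -0.063 ± 0.061 (SD, n = 2, limma adjusted p 0.626). The ratio of COX5A exceeded that of COX5B on every array, by 1.23 to 1.70, and the replicates gave 1.46 and 1.55. The mean difference of 1.51 ± 0.061 (SD, n = 2) amounts to a 2.84-fold change in the ratio of COX5A to COX5B transcript. It was not tested, and neither was cross-hybridization between these paralogs. The small subunit COX7 (YMR256C) was measured on 3 arrays, at -0.27 and -0.080 on forward and at -0.083 on the reverse array of replicate 1, and was not tested. COX5A and COX7 were therefore below 0 on every array with a value but 1, where COX4, COX6, COX9 and COX13 of the same complex lay above 0.4 on every array.

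**Figure D2:**
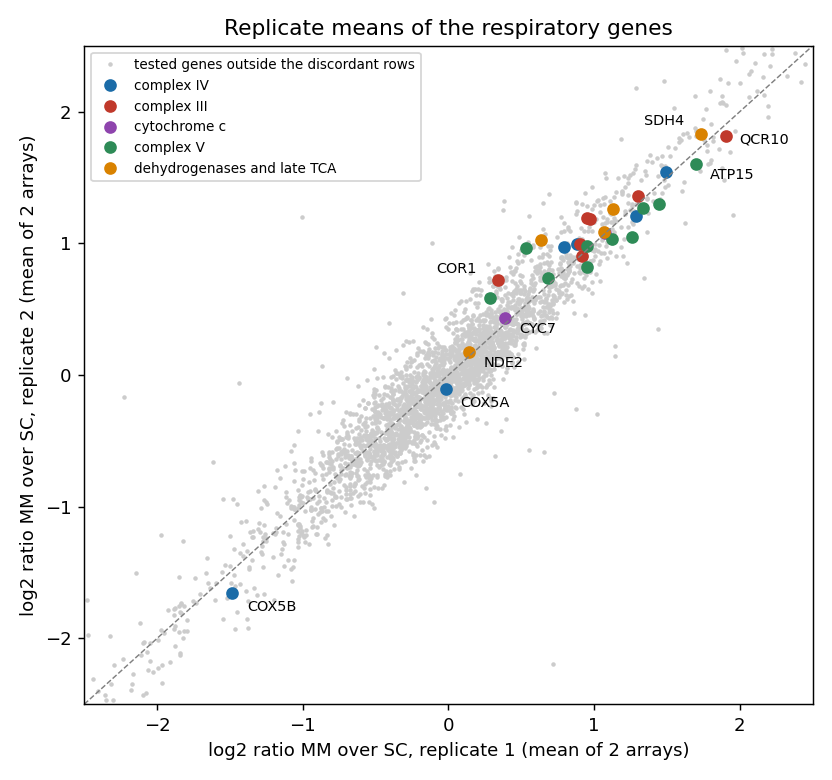
Mean log2 ratio of MM over SC of replicate 1 (x axis) and replicate 2 (y axis), each over 2 arrays, for the 30 tested respiratory genes (coloured by group) and the other tested genes outside the discordant rows (grey); 64 genes lie beyond the axes and the dashed line marks equality. COX5B sits apart at the lower left, COX5A and NDE2 near 0, and most other respiratory genes near 1 in both replicates.

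In complex V, 9 of 10 tested genes rose and the median was 1.02. The catalytic F1 head is built from ATP1 (alpha), ATP2 (beta), ATP3 (gamma), ATP16 (delta) and ATP15 (epsilon). ATP15 (YPL271W), the smallest of these, was at 1.95 and 1.62 on forward and at 1.45 and 1.58 on reverse arrays, and its mean of 1.65 ± 0.068 (SD, n = 2, limma adjusted p 0.00928) was the highest of the complex. ATP16 (YDL004W) followed at 1.15 ± 0.15 (SD, n = 2, limma adjusted p 0.0154). The larger F1 subunits were lower. ATP3 (YBR039W) rose by 0.71 ± 0.039 (SD, n = 2, limma adjusted p 0.0227), but was not called without the forward array of replicate 2 (0.52, limma adjusted p 0.132). ATP2 (YJR121W) was at 0.20 and 0.56 on forward and at 0.86 and 1.38 on reverse arrays, a spread that gave 0.75 ± 0.31 (SD, n = 2, limma adjusted p 0.0469), the weakest call among the respiratory genes. ATP1 (YBL099W) was measured in replicate 1 only, at 0.41 on forward and 0.77 on reverse arrays.

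The call of ATP2 was lost on omitting any of 3 arrays, at 0.95 without the forward array of replicate 2 (limma adjusted p 0.0911), at 0.58 without the reverse array of replicate 1 (limma adjusted p 0.149) and at 0.54 without the reverse array of replicate 2 (limma adjusted p 0.0570). Its increase is thus less certain than that of ATP15 or ATP16, which were called in each of these fits.

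The subunits of the peripheral stalk and the membrane part were more alike, with all 5 tested called higher and means between 0.89 and 1.37. ATP17 (YDR377W), the f subunit, was at 1.37, ATP7 (YKL016C), the d subunit of the stalk, at 1.30, and ATP5 (YDR298C), which joins the stalk to the F1 head, at 1.08. ATP20 (YPR020W), the g subunit that takes part in dimers of the enzyme, was at 0.97, and ATP4 (YPL078C), the b subunit, at 0.89. The SDs of these 5 genes lay between 0.022 and 0.11 (n = 2). TIM11 (YDR322C-A), the e subunit, had no value on any array. The inhibitor of the enzyme, INH1 (YDL181W), which blocks ATP hydrolysis, had the lowest mean of the complex. It was at 0.15 and 0.73 on forward and at 0.42 and 0.44 on reverse arrays, above 0 on all arrays, but its mean of 0.43 ± 0.21 (SD, n = 2) was not called (limma adjusted p 0.0836).

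**Figure D3:**
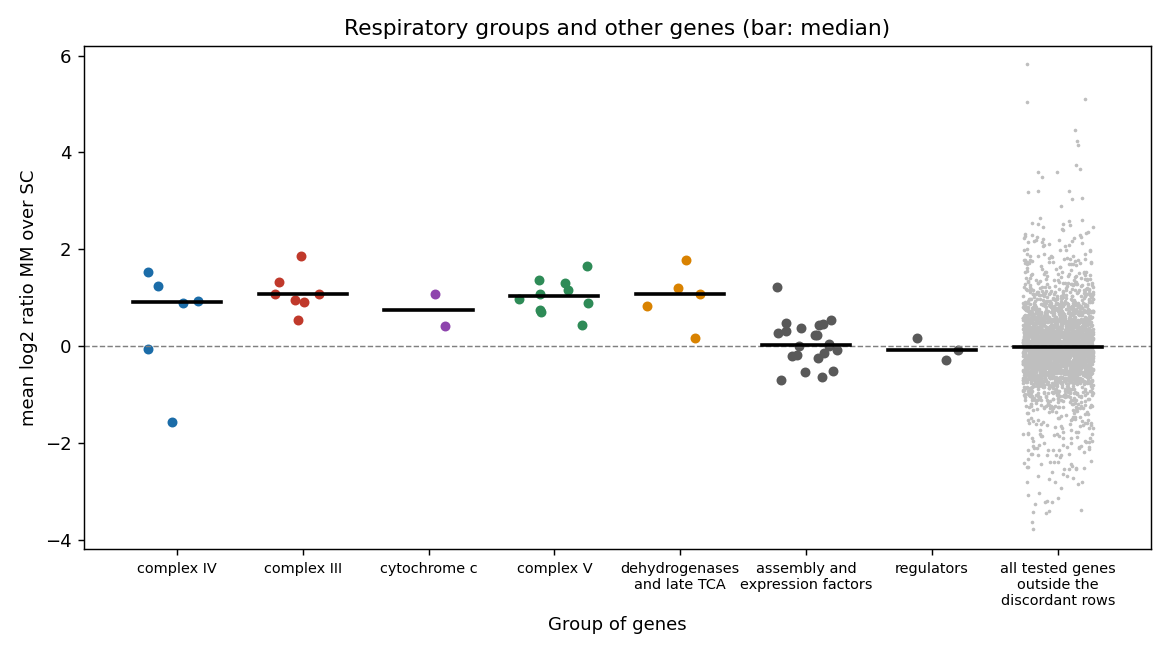
Mean log2 ratio of MM over SC (y axis) of each tested gene outside the discordant rows, by group (x axis), with the median of each group as a black bar. The medians of complexes III, IV and V and of the dehydrogenases and late TCA genes lie between 0.91 and 1.08. The median of cytochrome c (2 genes) is 0.74. The medians of the assembly factors and regulators lie between -0.088 and 0.026, and that of all tested genes at -0.019.

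Of the other genes of respiration, 81 were listed by function: further subunits, dehydrogenases and TCA enzymes, assembly and expression factors, regulators and mitochondrially encoded subunits. The assembly and expression factors, which insert cofactors or process and translate mitochondrial mRNAs, were called in both directions. Of 45 listed, 26 were tested, 5 rose and 4 fell, with a median of 0.13. The share called was 34.6%, near the 33.5% of all genes tested. Outside the discordant rows 4 of 22 rose and 4 fell, 36.4% against 40.4% of all genes there, with a median of 0.026 and replicates at 0.048 and 0.0032. No test was made of their difference from the subunits. CBP4, an assembly factor of complex III, had the largest increase at 1.22 ± 0.19, and MSS116, an RNA helicase for mitochondrial introns, the largest decrease at -0.71 ± 0.16 (SD, n = 2, limma adjusted p 0.0160 and 0.0297).

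Of 7 regulators, 6 were tested, and limma called 0 of them, while 1 had an unadjusted p of up to 0.05. With the replicate number as a block 2 were called. Over all 3765 genes tested, 1817 had such an unadjusted p. The block called 1979 of the 3765, against 1744 with 4 independent arrays. HAP4, the limiting subunit of the activator, lies in the discordant rows and had replicate means of 0.38 and 0.84 (mean 0.61 ± 0.32, SD, n = 2, limma adjusted p 0.0706). With the block, fitted with a correlation of -0.24 between same-numbered arrays, it was called higher (limma adjusted p 0.00899). Outside these rows, HAP2 was at -0.30, HAP3 at 0.16 and ROX1, a repressor of low-oxygen genes such as COX5B and CYC7, at -0.088 ± 0.0087 (SD, n = 2, limma adjusted p 0.489). None of these 3 was called over all genes without the block. HAP2 was called lower with the block (limma adjusted p 0.0345) and with the discordant rows left out of the fit (limma adjusted p 0.0250). The fit without these rows used 1 common variance and called 1920 of its 2994 genes.

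Of 11 further subunits, 8 lie in the discordant rows, and 4 were tested. STF2, which is named for stabilizing the bound inhibitor of the ATP synthase, lies outside them and rose by 1.77 ± 0.022 (SD, n = 2, limma adjusted p 0.00864). The succinate dehydrogenase genes SDH1 and SDH2 lie inside them, with replicate means of opposite sign (-0.29 and 1.53, and -0.18 and 1.71), so they cannot be set beside SDH4. Of 5 further dehydrogenases 3 were tested, and GUT2, the mitochondrial glycerol-3-phosphate dehydrogenase, rose by 1.27 ± 0.17 (SD, n = 2, limma adjusted p 0.0142). The NADH dehydrogenase genes NDE1 and NDI1 lie in the discordant rows. NDE1 had values in replicate 1 only, 2.1 on forward and 2.8 on reverse arrays, and was not tested. NDI1 was at 0.047 (limma adjusted p 0.871). DLD1, a mitochondrial D-lactate dehydrogenase, was at 0.34 (limma adjusted p 0.188) and was called higher with the discordant rows left out (limma adjusted p 0.0100). The fit without these rows called 1920 of its 2994 genes. Of 6 other TCA cycle genes 2 were tested, and limma called 0, while 1 had an unadjusted p of up to 0.05. With the replicate number as a block 2 were called higher. Over all 3765 genes tested, 1817 had such an unadjusted p and 1979 were called with the block. CIT1, the mitochondrial citrate synthase, was at 0.39 ± 0.16 (SD, n = 2, limma adjusted p 0.0847) and was called higher with the discordant rows left out (limma adjusted p 0.00290). MDH1, the mitochondrial malate dehydrogenase, lies in the discordant rows, with replicate means of 0.22 and 1.34. The 7 mitochondrially encoded subunits had no value on any array. Their mRNAs are known to lack stable poly-A tails in budding yeast, and these arrays were primed with oligo-dT. Why they were blank was not tested, and the nuclear genes ATP18 and ATP19 had no value on any array either.

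A dye term was fitted to see which genes followed the dye rather than the medium. By limma 0 of the 30 respiratory genes were called, while 11 had an unadjusted p of up to 0.05. With the replicate number as a block 0 were called too, and 10 had such an unadjusted p. Over all 3765 genes tested 0.0266% were called. Of these 3765, 309 had such an unadjusted p, and 596 with the block. Between the orientations the absolute difference had a median of 0.32 in the 30 genes and 0.22 in all genes tested. Each replicate mean averages both orientations, so a dye difference shared by the replicates is left out of the SDs and the medium test. Across the 30 genes, arrays correlated at 0.93 (forward) and 0.86 (reverse) within an orientation. Within replicates 1 and 2 they correlated at 0.78 and 0.73. The highest difference was that of QCR7 (0.74, forward minus reverse) and the lowest that of ATP2 (-0.74). For CYC1 it was 0.55 and for COX5B 0.0022.

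The differences between the dye orientations followed gene length. Of the 20 tested respiratory genes with a gene of up to 600 bp, 18 had a higher ratio on the forward arrays, with a median difference of 0.28. Of the 10 longer genes, 8 had a higher ratio on the reverse arrays, with a median difference of -0.35. Across the 30 genes, Spearman's rho between length and this difference was -0.693, and across 1963 other tested genes of the same length range outside the discordant rows it was -0.428. Both values describe genes measured on the same arrays. The mean of both orientations followed length less closely, with a rho of -0.287 in the respiratory genes and -0.220 in the others. Short and long respiratory genes both had medians above those of other genes of their length. The median log2 ratio was 1.08 up to 600 bp and 0.86 above, with 16 of 20 and 8 of 10 called higher, against 0.24 and -0.029 in the other genes, of which 31.1% and 19.4% were called higher. The part of gene length in the order of the subunits was not tested.

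**Figure D4:**
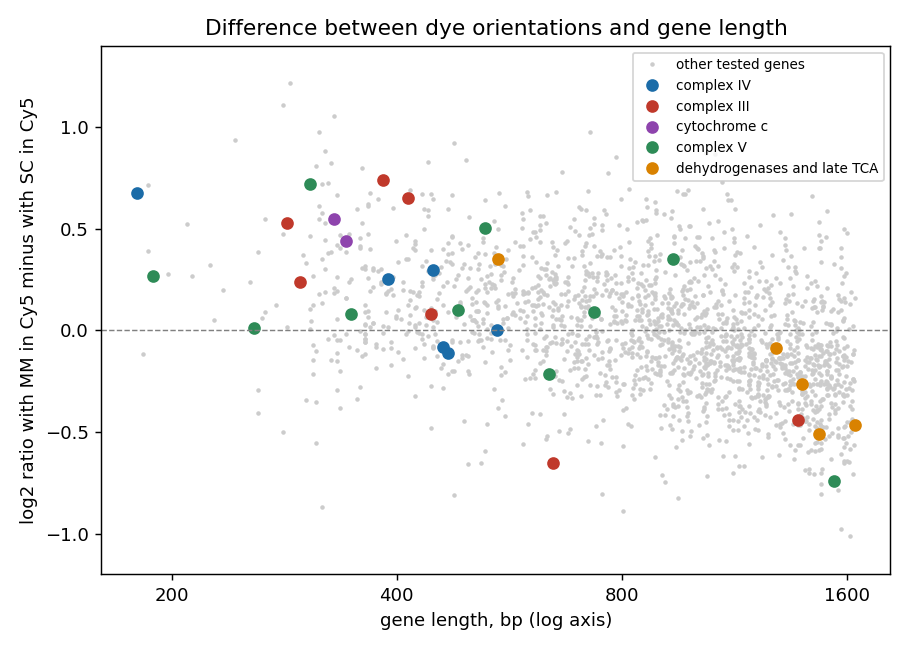
Log2 ratio on forward minus that on reverse arrays (y axis, means of 2 arrays each) against gene length in bp (x axis, log scale) for the 30 tested respiratory genes (coloured by group) and 1963 other tested genes (grey). Short respiratory genes such as QCR7 and COX9 lie mostly above 0 and long ones such as ATP2 and FUM1 below 0, as in the grey points.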

How the data were processed

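Log2 ratios were measured on 4 two-colour arrays of S. cerevisiae ORFs, with 2 µg of mRNA per labelling. The authors scanned the arrays, subtracted the background, left spots blank unless they exceeded it by 3 SD of the background pixels, and normalized each array mean by mean; the deposited values are log2 ratios, 1 per ORF and array. No genome build is given in the sources used here. Blank ORFs made up 5.71% and 7.25% of the arrays of replicate 1 and 30.3% and 34.6% of those of replicate 2. The number of arrays limits the precision.

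Both dye orientations of a replicate were averaged (n = 2), by the number in the titles; the labels name biological replicates and dye swapping, but no source used here says that arrays of 1 number share RNA, and the study's methods speak of independent reverse transcriptions. For genes with 4 values, limma 3.58.1 (lmFit, eBayes; R 4.3.3) gave a two-sided test of the mean against 0, adjusted by Benjamini-Hochberg over 3765 genes. A dye term was tested on the 4 arrays. The fits were run on simulated data in which same-numbered arrays shared variation and no rows were discordant. That run therefore cannot show how they perform on these arrays. The Bayesian program of the study was not used. Symbols and gene lengths, introns included, come from the RefSeq table of assembly R64, where 35 of 35 respiratory and 81 of 81 other listed ORFs matched. Each respiratory gene is named with its values. Values for each array are given for the extremes of each group, the isoform pairs and genes with blanks. They are also given for some further genes chosen after their values were seen. In other lists the called genes that rose and fell most are named. The succinate dehydrogenase genes, NDE1, NDI1 and the regulators named beside them were chosen after their values were seen. The members and lists were chosen with earlier results of these data known, and so was the omission of the discordant rows. The length limit of 600 bp was chosen after the data were seen.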

Additional observations from a re-analysis of the deposited data

Results flagged for a closer look

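NDE2 was singled out because its arrays of opposite dye orientation moved in opposite directions: both forward arrays (MM in Cy5) were below 0 and both reverse arrays (SC in Cy5) above 0. The difference was -0.46 on the log2 scale (forward minus reverse; adjusted p 0.568 for the dye term in limma), so it did not pass the adjustment over 3765 genes. NDE2 spans 1638 bp, and 8 of the 10 tested respiratory genes over 600 bp had a negative difference.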

How the results depend on the processing

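The count of respiratory genes called, 25 of 30, lay between 20 and 24 with any 1 array left out, and the count called higher between 19 and 23; every other moderated test gave 24 to 28. With the replicate number as a block 28 were called (27 higher), with 4 independent arrays 28, and with the discordant rows left out of the fit 28. In the same order, these fits called 1979 of 3765, 1744 of 3765 and 1920 of 2994 genes over all. The 25 genes were among the 28 in each of these fits, and the 3 added genes, called higher, were COR1, CYC7 and INH1. Same-numbered arrays deviated together over all genes tested (r = 0.706) but not outside the discordant rows (r = 0.044), so the pairing rests only on the number in the titles. With no moderation 0 were called (0 higher, 0 lower), while 20 had an unadjusted p of up to 0.05; this test has 1 degree of freedom. COX5B was called lower in each moderated fit. The median log2 ratio of 1.02 was between 0.91 and 1.05 without single arrays, and 1.03 and 0.95 without replicates 1 and 2. ATP2 was also not called with arrays centred on their medians (limma adjusted p 0.0615), scaled to 1 spread (0.0512), or with genes that have a value in each replicate (0.0560). ATP1 and KGD1, with 2 arrays each, moved to 0.41 and 0.77 and to 0.46 and 0.99 when either was left out.

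Over all genes, 1263 of 3765 were called (622 higher, 641 lower). With the discordant rows left out, where limma estimated 1 common variance, 1920 of only 2994 genes were called (997 lower). The replicate block gave 1979 of 3765 (956 higher, 1023 lower), and no moderation gave 0 (0 higher and 0 lower, 877 unadjusted). Without the forward array of replicate 2 there were 570 calls (300 higher, 270 lower). Leaving out single arrays gave 570 to 1026 calls, 300 to 496 higher and 270 to 530 lower. The dye term was called in 1 gene, in 26 with the replicate block, in 2 with the discordant rows left out, and in 0 with any array left out (56 to 311 unadjusted). The cause of these differences was not tested. Without an array its replicate keeps 1 dye orientation, and without a replicate no test is possible. COX7, with 3 arrays, entered the fit of genes with a value in each replicate and was not called there (limma adjusted p 0.397).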
